A study of Homo sapiens with 8 samples.

Results

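The replication-dependent histone genes are the intron-poor genes, most of them packed into clusters, that supply the bulk of the nucleosome proteins while DNA is copied. Members were the protein-coding genes of the deposited tables whose current symbol is H1-1 to H1-6 or begins with H2AC, H2BC, H3C or H4C followed by a number, with older HIST symbols mapped to these names. The rule found 69 of 58302 gene IDs, of which 4 (H3C2, H3C3, H2AC18 and H2AC19) were matched through their older symbol. They comprised 6 linker histone H1 genes, 17 H2A, 18 H2B, 13 H3 and 15 H4 genes. By the GENCODE v29 annotation of GRCh38, 55 lie in the major cluster of chromosome 6, 13 on chromosome 1 (11 near each other, with H2AC25 and H2BC26 far along the chromosome from them) and 1, H4C16, on chromosome 12.

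RNA was measured in Caco-2/15 cells, a clone of a human colon cancer line that acquires features of absorptive enterocytes once it is confluent. A Flag epitope tag had been added by CRISPR-Cas9 editing to 1 copy of H2AFZ (now H2AZ1) in the Z1flag line and to 1 copy of H2AFV (now H2AZ2) in the Z2flag line, both genes of the histone variant H2A.Z. Each line was harvested while subconfluent and at 7 days after confluence (postconfluent), with 2 libraries in each of the 4 groups, and all groups carry a tagged allele, so no untagged cells enter the comparisons. The sources used here do not say whether each line is a single clone or whether the replicates are separate cultures, so that p-values measure the spread between these libraries. Libraries held 17063826 to 40881682 counts assigned to genes. Levels are CPM (counts relative to a library's total) scaled by the TMM method, a change is a log2 fold change of postconfluent over subconfluent cells, and a gene was called where the edgeR quasi-likelihood test gave a Benjamini-Hochberg adjusted p below 0.05 over the 18240 genes tested.

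As background, these genes are transcribed mainly in S phase, when cyclin E with CDK2 phosphorylates NPAT, the co-activator gathered at the histone gene clusters. As a rule their messenger RNAs end in a conserved stem-loop in place of a poly(A) tail, though some gene models run well past it. The stem-loop is bound by SLBP, and the U7 small nuclear ribonucleoprotein, with its proteins LSM10 and LSM11, directs the cut behind it. When replication stops the messages are degraded, while replication-independent histones such as H3.3 come from polyadenylated messages and are made throughout the cycle and in resting cells. In the intestinal epithelium, enterocytes stop dividing as they mature. The libraries were depleted of ribosomal RNA, per the labels, a step that does not depend on a poly(A) tail.

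The stem-loop is shown first because it is the sequence that sets this gene class apart. A fixed 16-base consensus of the histone stem-loop was searched, with 6 stem bases on each side of a loop of 4 bases. Base pairing was not checked, and hairpins of other sequence were not looked for. The consensus was found in annotated transcripts of 31 of the 69 members and of 27 of 19853 other protein-coding genes (0.136%). Of the 31 members whose longest annotated transcript was under 450 bases 2 held it, against 29 of the 38 with longer models. None of the 6 H1 genes held it, with models of 642 to 754 bases. A model that stops short of the message end cannot hold it, so its absence from a model does not show that the message lacks it. The forms found are written as DNA, 5′ to 3′, with the loop in capitals.
17 members (6 H2A, 8 H2B and 3 H3 genes): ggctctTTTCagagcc
5 H4 genes (H4C2, H4C5, H4C8, H4C11 and H4C16): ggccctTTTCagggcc
4 members (H2BC4, H2BC5, H2BC7 and H3C8): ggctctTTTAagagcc
3 H4 genes (H4C9, H4C14 and H4C15): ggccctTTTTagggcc
H3C6: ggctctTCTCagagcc
H2AC11: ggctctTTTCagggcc
The H4 genes share a stem of their own, and the H2A, H2B and H3 genes, apart from H2AC11, share another. H2AC11 held a form found in no other member. The form with a loop ending in T was held by H4C9, H4C14 and H4C15, whose levels went in different directions below.

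Promoters were taken from RefSeq on GRCh38.p14 for 64 of the 69 members, and the 250 bases before the start were searched on both strands. The TATAA motif stood in 59 of 64 (92.2%) against 19.6% of 27305 promoters of all genes, and CCAAT, the letters bound by NF-Y, in 54 of 64 (84.4%) against 33.0%. CCAAT was in every H1, H2A, H2B and H3 promoter searched and in 3 of 13 H4 promoters. The octamer ATTTGCAT, read by the factor POU2F1, was in 11 of 16 H2A and 14 of 18 H2B promoters, in 26 of 64 (40.6%) of all members and in 1.66% of all promoters. The H1 box AAACACA was in all 6 H1 promoters and in none of the other members searched, against 4.95% of all promoters. A match is a description, not a bound site. The last 120 bases before the start are printed for 3 members that fell and, chosen after their values were seen, for H2AC6 and H2AC25, which stood at nearly the same level in both states. Capitals mark these motifs on either strand, and abutting or overlapping matches run together.
H2AC4, chr6:26033619-26033738, minus strand: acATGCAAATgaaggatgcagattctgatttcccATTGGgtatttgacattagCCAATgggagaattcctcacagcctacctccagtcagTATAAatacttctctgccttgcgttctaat
H1-5, chr6:27867589-27867708, minus strand: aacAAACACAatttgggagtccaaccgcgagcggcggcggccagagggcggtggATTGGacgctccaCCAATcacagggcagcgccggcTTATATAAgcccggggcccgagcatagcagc
H2BC12, chr6:27146859-27146978, minus strand: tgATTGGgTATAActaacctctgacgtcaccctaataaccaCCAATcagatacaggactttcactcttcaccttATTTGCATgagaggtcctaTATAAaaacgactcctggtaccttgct
H2AC6, chr6:26124052-26124171, plus strand: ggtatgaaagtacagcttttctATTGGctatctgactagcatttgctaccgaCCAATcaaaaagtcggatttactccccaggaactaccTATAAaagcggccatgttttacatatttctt
H2AC25, chr1:228457874-228457993, minus strand: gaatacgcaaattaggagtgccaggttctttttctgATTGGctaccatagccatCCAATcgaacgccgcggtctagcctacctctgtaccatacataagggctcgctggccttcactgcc
All 5 windows held CCAAT on both strands. TATAA was absent from the printed window of H2AC25, and the octamer from those of H1-5, H2AC6 and H2AC25. Over all members with a promoter, CCAAT was present in 34 of 42 called lower and in 8 of 9 with no call, TATAA in 38 of 42 and 8 of 9, and the octamer in 16 of 42 and 4 of 9, so that none of these letters split the members by their call.

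Summed over all members, histone messages stood about 2-fold lower in postconfluent than in subconfluent cells. The sum was 15581 and 11969 CPM in subconfluent Z1flag cells and 11800 and 12645 CPM in subconfluent Z2flag cells, against 3527 and 8947 CPM in postconfluent Z1flag cells and 5736 and 7384 CPM in postconfluent Z2flag cells. Every postconfluent library lay below every subconfluent one, and the 2 postconfluent Z1flag libraries lay furthest apart. The means were 12999 ± 1760 and 6398 ± 2321 CPM (SD, n = 4 libraries per state), a ratio of 0.492. As a share of all gene counts the members made up 0.379% to 1.55%. The ratio of state means was lowest for H3 (0.405), followed by H1 (0.452), H4 (0.477), H2A (0.515) and H2B (0.551), and this order was not tested. In bulk RNA, fewer cells in S phase and less histone RNA per cell cannot be told apart.

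**Figure D1:**
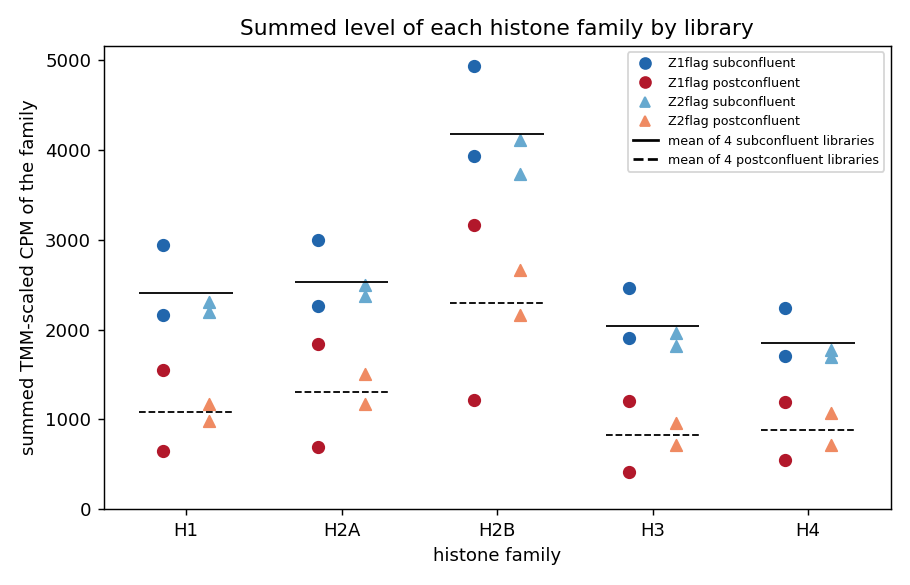
Summed TMM-scaled CPM of the members of each histone family (y axis) by family (x axis), 1 point per library, circles for Z1flag and triangles for Z2flag; solid and dashed lines are the means of the 4 subconfluent and the 4 postconfluent libraries. In each family the postconfluent points lie below the subconfluent ones, and postconfluent Z1flag replicate 1 is the lowest (650 CPM for H1 and 1213 CPM for H2B).

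Of the 69 members, 56 had enough counts to be tested. The other 13 reached at most 19 counts in any library, and H2AC1 and H3C4 had none. Over both lines 46 of the 56 were called lower, 1 higher and 9 were not called, with a median log2 fold change of -1.14, beside 27.5% of all tested genes called lower, 27.8% called higher and a median of -0.01. Scaled by the upper quartile, all genes had a median of 0.18. By that scaling 21% of genes were lower and 34.3% higher, and 38 members were lower and 1 higher (median -0.96). By more than 2-fold, 33 members were called lower, against 13.1% of all genes. In 44 members all 4 postconfluent libraries lay below all 4 subconfluent ones, which was so for 26.1% of all genes. The filter admits a gene that is expressed in either state, so these counts cover the tested members and not all 69. Leaving out postconfluent Z2flag replicate 1 reduced the 46 calls to 29, and 27 of the 46 kept their call under all alternatives that were run.

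By position, 35 of 42 tested members of the chromosome 6 cluster fell and 1 rose (median -1.09), 9 of the 11 neighbouring members on chromosome 1 fell (median -1.47), and H4C16 on chromosome 12 fell. At the other site on chromosome 1 H2BC26 fell and H2AC25 was not called. By annotation, 36 of 43 members with single-exon models and 10 of 13 with any multi-exon model fell, with medians of -1.19 and -1.04. Of 22 tested members annotated 200 bases or more past the stem-loop, 17 fell and 1 rose (median -0.97). With fewer bases past it 7 of 9 fell (median -0.98), and with no stem-loop found 22 of 25 (median -1.24). These groups were not tested against each other. Many members are near-copies of one another. Of 42 tested members with at least 80% of their 50-base words found in no other gene, 34 fell and 1 rose (median -1.02), and of 14 with fewer, 12 fell (median -1.48). Reads that align to several places are listed apart in the files, so levels of the latter are uncertain. Such reads were 6.59% to 6.89% in the subconfluent and 7.84% to 10.3% in the postconfluent libraries, and their part in the change of near-copies was not tested.

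**Figure D2:**
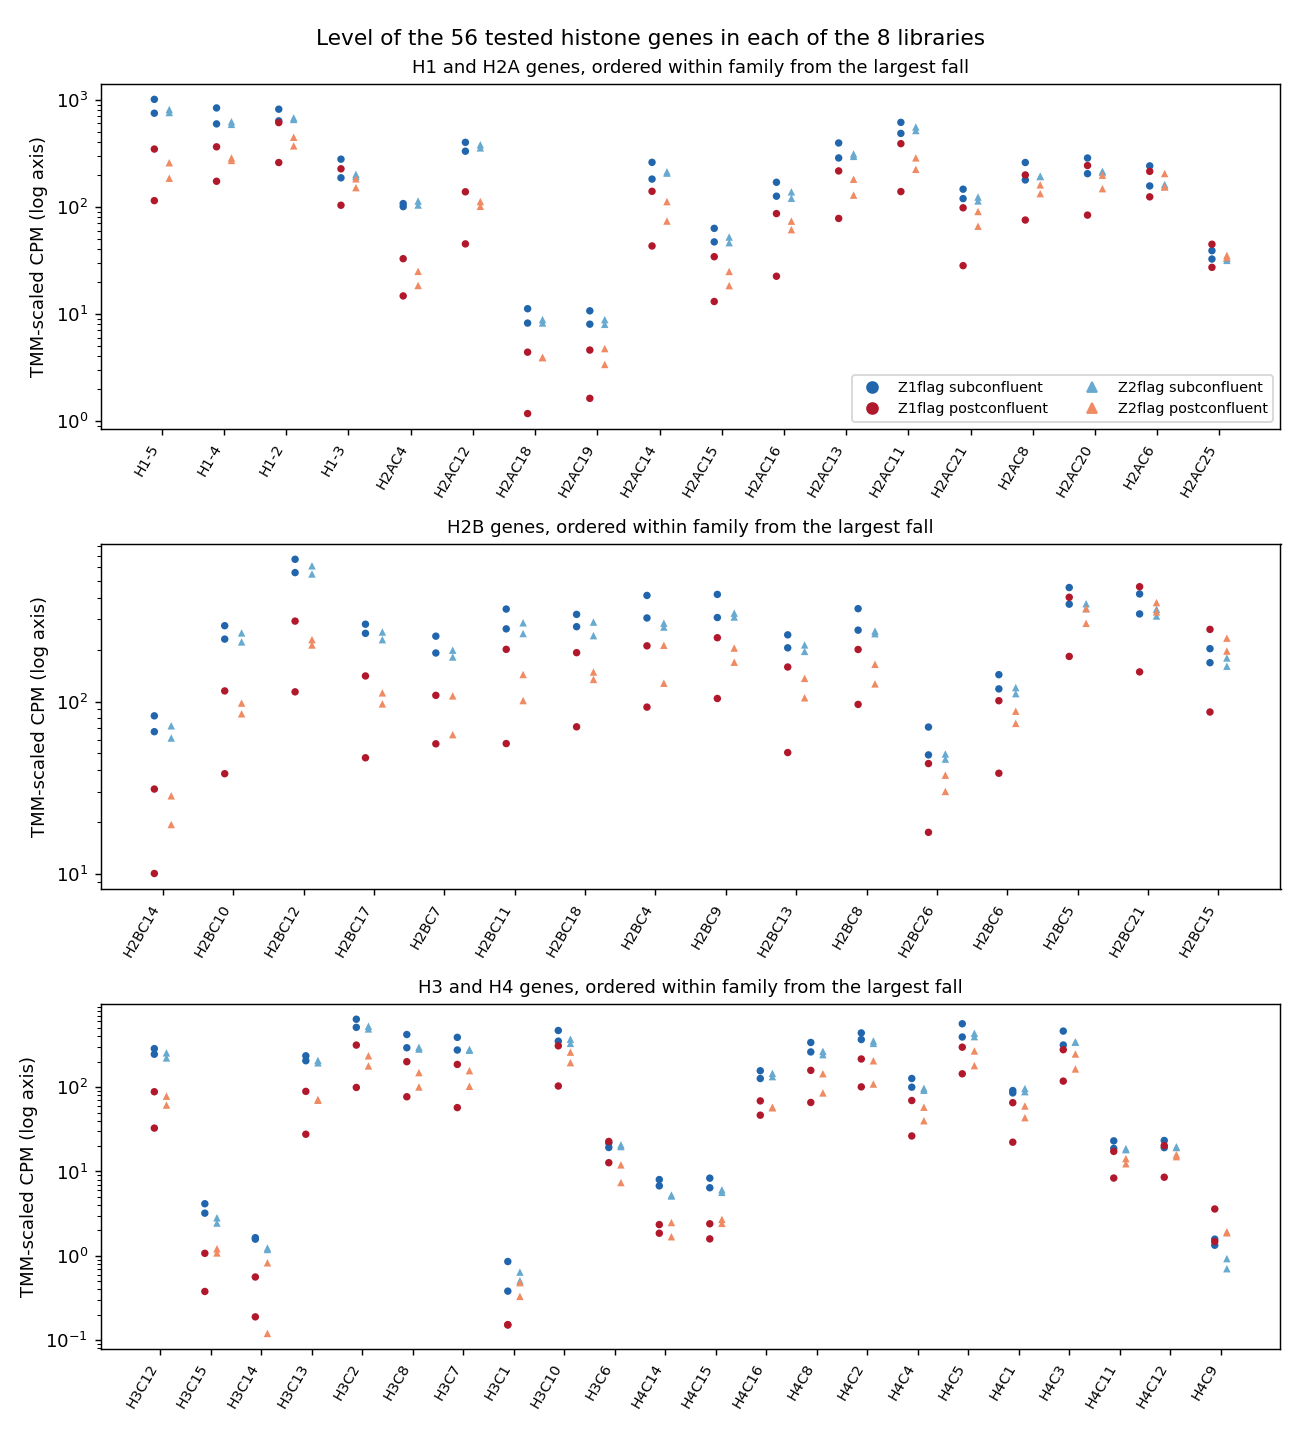
TMM-scaled CPM (y axis, log scale) of each of the 56 tested members (x axis, by family and in order of their change), 1 point per library. Most members show postconfluent points below the subconfluent ones, while the members at the right end of a family, such as H2AC25, H2BC15 and H4C12, show overlapping states, and H4C9 lies higher after confluence.

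Linker histones bind the DNA between nucleosomes and compact chromatin. Of 6 H1 genes 4 were tested and 3 fell, while H1-1 and H1-6 were too low to test. H1-5 (ENSG00000184357, chromosome 6, 27866849 to 27867529, minus strand) stood at 1008 and 748 CPM in subconfluent Z1flag cells and 759 and 809 CPM in subconfluent Z2flag cells. It stood at 114 and 346 CPM in postconfluent Z1flag cells and 185 and 258 CPM in postconfluent Z2flag cells. All 4 postconfluent values lay far below the subconfluent ones, a fall of 1.88 (SE 0.30, edgeR adjusted p = 0.000552). H1-4, another somatic subtype, fell from 661 ± 119 to 273 ± 78 CPM (SD, n = 4), by 1.27 (SE 0.22, edgeR adjusted p = 0.000969). H1-2, the H1 member with the highest mean level, had values of 816 and 635 CPM in subconfluent Z1flag cells and 654 and 677 CPM in subconfluent Z2flag cells, against 259 and 611 CPM in postconfluent Z1flag cells and 371 and 446 CPM in postconfluent Z2flag cells. Its states came close, with postconfluent Z1flag replicate 2 just below the lowest subconfluent value. The fall of 0.72 (SE 0.24, edgeR adjusted p = 0.0266) lost its call in 8 alternatives, among them without subconfluent Z1flag replicate 1 and without each of the 4 Z2flag libraries (adjusted p up to 0.125 by edgeR). H1-3 overlapped between states, at 215 ± 43.1 and 166 ± 51.9 CPM (SD, n = 4), with a change of -0.37 (SE 0.24, edgeR adjusted p = 0.21).

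H1-10, a linker histone gene outside the class, was at 32.6 and 38 CPM in subconfluent Z1flag cells and 39.2 and 36.6 CPM in subconfluent Z2flag cells, and at 81.8 and 226 CPM in postconfluent Z1flag cells and 122 and 183 CPM in postconfluent Z2flag cells. All 4 postconfluent libraries lay above all 4 subconfluent ones, and postconfluent Z1flag replicate 1 was the lowest of them. It rose by 2.07 (SE 0.28, edgeR adjusted p = 0.000215), the opposite direction to the H1 members that fell.

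**Figure D3:**
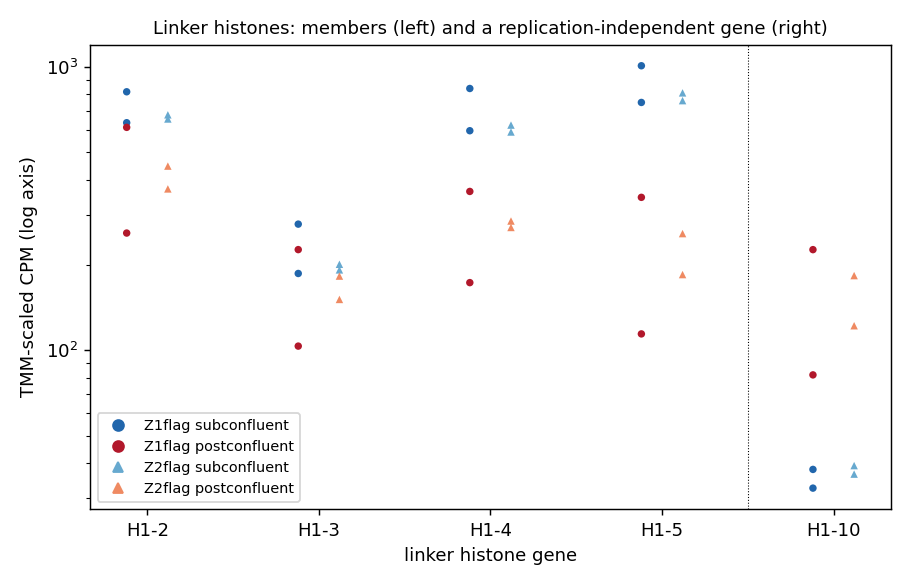
TMM-scaled CPM (y axis, log scale) of 4 H1 members (left of the dotted line) and of H1-10 (right) in each library. The members lie lower or at overlapping levels after confluence, and H1-10 lies higher in all 4 postconfluent libraries than in any subconfluent one.

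H2A forms dimers with H2B, and 10 of 14 tested H2A genes fell, with the other 4 not called (median -1.14). H2AC4 (ENSG00000278463, chromosome 6, 26033176 to 26033568, minus strand) had the largest fall of all members. It was measured at 107 and 100.4 CPM in subconfluent Z1flag cells and 104 and 113 CPM in subconfluent Z2flag cells. In contrast it was at 14.7 and 32.8 CPM in postconfluent Z1flag cells and 18.4 and 25 CPM in postconfluent Z2flag cells. The subconfluent libraries agreed closely and the postconfluent ones were all below them by more than 3-fold, a fall of 2.23 (SE 0.23, edgeR adjusted p = 4.91e-05). H2AC12, in the part of the chromosome 6 cluster that also holds H2BC12, fell from 366 ± 30 to 99 ± 39.2 CPM (SD, n = 4), by 1.89 (SE 0.29, edgeR adjusted p = 0.000405). H2AC15 fell by 1.20 (SE 0.27, edgeR adjusted p = 0.00356). H2AC11, the most abundant H2A member in CPM, stood at 615 and 485 CPM in subconfluent Z1flag cells and 516 and 556 CPM in subconfluent Z2flag cells, and at 139 and 389 CPM in postconfluent Z1flag cells and 224 and 286 CPM in postconfluent Z2flag cells. Its states did not overlap, and its fall of 1.07 (SE 0.27, edgeR adjusted p = 0.00779) missed the threshold without postconfluent Z2flag replicate 1 (edgeR adjusted p = 0.0519).

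Some H2A genes stood apart from this pattern. H2AC25, on chromosome 1, was at 38.9 and 32.5 CPM in subconfluent Z1flag cells and 33 and 31.6 CPM in subconfluent Z2flag cells, and at 27.2 and 44.7 CPM in postconfluent Z1flag cells and 35.1 and 33.6 CPM in postconfluent Z2flag cells. Its states overlapped fully, with a change of 0.05 (SE 0.17, edgeR adjusted p = 0.822), and its sign turned without a filter on low counts and without replicate 2 of either Z1flag group. H2AC6, picked after its values were seen, was at 241 and 157 CPM in subconfluent Z1flag cells and 155 and 161 CPM in subconfluent Z2flag cells, and at 124 and 214 CPM in postconfluent Z1flag cells and 153 and 204 CPM in postconfluent Z2flag cells, and its change was -0.03 (SE 0.21, edgeR adjusted p = 0.914). Its sign turned in 7 of 18 alternatives. The other uncalled members were H2AC8 at -0.53 and H2AC20 at -0.44, both called lower without postconfluent Z1flag replicate 2 (edgeR adjusted p = 0.000795 and 0.00119) and with no filter on low counts. A missed threshold does not show that these genes did not change.

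Among H2B genes 13 of 16 tested fell, with the other 3 not called (median -0.95). H2BC12 (ENSG00000197903, chromosome 6, 27146418 to 27146798, minus strand) was the most abundant H2B member, with 669 and 560.0 CPM in subconfluent Z1flag cells and 549.8 and 613 CPM in subconfluent Z2flag cells. After confluence it was at 114 and 293 CPM in postconfluent Z1flag cells and 213 and 229 CPM in postconfluent Z2flag cells. It fell by 1.50 (SE 0.25, edgeR adjusted p = 0.000752), and 25.9% of its 50-base words are found in no other gene, so that its level may miss reads shared with its copy H2BC12L. H2BC14 had the largest fall of the family, from 70.8 ± 9.05 to 22.2 ± 9.53 CPM (SD, n = 4), by 1.68 (SE 0.30, edgeR adjusted p = 0.00104). H2BC7 fell by 1.26 (SE 0.23, edgeR adjusted p = 0.00119). At the other end stood H2BC15, with 5477 annotated exonic bases. These overlap exons of H2AC16 on the same strand and of H2AC15 on the other. H2BC15 had 203 and 168 CPM in subconfluent Z1flag cells and 160.3 and 179 CPM in subconfluent Z2flag cells. Of its postconfluent values, 87 and 262 CPM in Z1flag and 196 and 233 CPM in Z2flag cells, 2 lay above the subconfluent range, 1 within it and 1, Z1flag replicate 1, far below it. Its change of 0.13 (SE 0.28, edgeR adjusted p = 0.719) became a call for a rise of 0.48 without that library (edgeR adjusted p = 0.00938) and a fall of 0.34 without postconfluent Z1flag replicate 2 (edgeR adjusted p = 0.048). H2BC5 and H2BC21, named because they were the other uncalled genes, had -0.34 and -0.09. Without postconfluent Z1flag replicate 2 both were called lower, at -0.64 and -0.57 (edgeR adjusted p = 0.00282 and 0.00561), while without both Z1flag libraries of experiment 1 H2BC21 was called higher, at 0.35 (edgeR adjusted p = 0.043).

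H3 forms the core tetramer with H4, and all 10 tested H3 genes fell (median -1.34). H3C12 (ENSG00000197153, chromosome 6, 27890382 to 27893106, minus strand) was at 286 and 245 CPM in subconfluent Z1flag cells and 222 and 255 CPM in subconfluent Z2flag cells, against 32.7 and 88.1 CPM in postconfluent Z1flag cells and 61.3 and 78.1 CPM in postconfluent Z2flag cells. No library of one state reached the other, and the fall was 1.96 (SE 0.27, edgeR adjusted p = 0.000215). Its annotated exons overlap those of H2AC17 on the same strand, and 37.2% of its 50-base words are found in no other gene. H3C2, the H3 member with the highest level, fell from 541 ± 66.3 to 207 ± 91.1 CPM (SD, n = 4), by 1.39 (SE 0.30, edgeR adjusted p = 0.00306). H3C13, on chromosome 1, fell by 1.71 (SE 0.29, edgeR adjusted p = 0.000791). Only 19.6% of its 50-base words are found in no other gene, so its level is uncertain. H3C15, of which no 50-base word is unique because H3C14 shares it, had 4.15 and 3.21 CPM in subconfluent Z1flag cells and 2.83 and 2.45 CPM in subconfluent Z2flag cells, and 0.378 and 1.07 CPM in postconfluent Z1flag cells and 1.21 and 1.08 CPM in postconfluent Z2flag cells. It fell by 1.79 (SE 0.33, edgeR adjusted p = 0.00115), at low counts. H3C1 never passed 0.856 CPM, with 3 to 27 counts per library, and its fall of 1.24 (SE 0.42, edgeR adjusted p = 0.03) lost its call in 11 alternatives, among them without each library in turn except subconfluent Z1flag replicate 2 (adjusted p up to 0.170 by edgeR).

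H3C6 was, with H2AC4 and H2AC11, among the 3 members with the lower value of the change in Z2flag cells. It stood at 21.8 and 19.2 CPM in subconfluent Z1flag cells and 19.7 and 20.7 CPM in subconfluent Z2flag cells, and at 22.7 and 12.7 CPM in postconfluent Z1flag cells and 7.39 and 12 CPM in postconfluent Z2flag cells. The highest of its 8 values was postconfluent Z1flag replicate 1, the library with the lowest level of most other members. The fall over both lines was 0.64 (SE 0.22, edgeR adjusted p = 0.0322) and lost its call in 9 alternatives, among them without each library except postconfluent Z1flag replicate 1 and postconfluent Z2flag replicate 2 (adjusted p up to 0.140 by edgeR). Within Z1flag cells its change was -0.21 (SE 0.31) and within Z2flag cells -1.06 (SE 0.32, edgeR adjusted p = 0.0246). The call in Z2flag was lost with upper-quartile scaling and without any of 3 of the 4 Z2flag libraries, the exception being postconfluent replicate 2, with changes of -1.36 to -0.67 when 1 library was left out (adjusted p up to 0.206 by edgeR).

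Of the H4 genes 10 of 12 tested fell and 1 rose (median -1.05). H4C16 (ENSG00000197837, chromosome 12, 14767999 to 14771131, minus strand), alone on its chromosome, had the lowest SE of the tested members. It was at 156 and 126 CPM in subconfluent Z1flag cells and 146 and 133 CPM in subconfluent Z2flag cells, and at 46.5 and 68.6 CPM in postconfluent Z1flag cells and 56.9 and 57.6 CPM in postconfluent Z2flag cells. The fall was 1.29 (SE 0.16, edgeR adjusted p = 0.000112), nearly equal in both lines at -1.30 and -1.28. H4C5, the most abundant H4 member in CPM, fell from 447 ± 80 to 222 ± 72.4 CPM (SD, n = 4), by 1.00 (SE 0.24, edgeR adjusted p = 0.00534). H4C14 and H4C15, a pair of copies on chromosome 1 with no unique 50-base word, fell by 1.56 (SE 0.23, edgeR adjusted p = 0.000289) and 1.54 (SE 0.23, edgeR adjusted p = 0.000321), and their separate values are uncertain.

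H4C9 (ENSG00000276180, chromosome 6, 27138588 to 27139881, plus strand) was the exception. It had 1.58 and 1.34 CPM in subconfluent Z1flag cells and 0.927 and 0.703 CPM in subconfluent Z2flag cells, and 3.59 and 1.48 CPM in postconfluent Z1flag cells and 1.87 and 1.92 CPM in postconfluent Z2flag cells. Postconfluent Z1flag replicate 1, at 95 counts, was the highest, both postconfluent Z2flag libraries also lay above all subconfluent ones, and postconfluent Z1flag replicate 2 lay inside the subconfluent range. The rise of 1.01 (SE 0.32, edgeR adjusted p = 0.022) lost its call in 4 alternatives: without either subconfluent Z1flag library, without subconfluent Z2flag replicate 2, and without both Z1flag libraries of experiment 1 (adjusted p up to 0.0897 by edgeR). H4C12, a copy of H4C11, was not called (-0.45, SE 0.24), but was called lower without postconfluent Z1flag replicate 2 and with no filter on low counts (edgeR adjusted p = 0.00139 and 0.0305).

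Per kilobase of GENCODE v29 exon, which only approximates the annotation used for counting, the members with the highest subconfluent levels were H2BC12 at 1569, H3C2 at 1318, H1-5 at 1221, H1-2 at 1083, H2AC12 at 946 and H1-4 at 877 CPM per kb. After confluence these stood at 557, 503, 332, 657, 256 and 362 CPM per kb. Among these genes and on this scale of level, H2BC12 was highest before confluence and H1-2 after it. The ranking depends on annotated length, and the exonic lengths of these genes were 381 to 754 bases. H2AC11 and H4C5 had 2250 and 1487 bases, of which 1761 and 1022 lay past the stem-loop, which lowers their values per kilobase.

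Neighbouring histone genes that are transcribed away from each other share the stretch between their starts. There were 12 such pairs within 1000 bp, 9 with both members tested and 8 of these joining an H2A and an H2B gene. H2BC17 was paired both with H3C12 (357 bp) and with H2AC17 (314 bp), whose annotated exons overlap. That stretch is therefore counted more than once, and the tested pair of H3C12 with H2BC17 rests on the overlapping model. The median absolute difference of the 2 changes within a pair was 0.40, against 0.52 over all 1540 pairs of tested members. In the closest match, H2BC11 and H2AC11 (292 bp between their annotated starts) changed by -1.18 and -1.07. In H2BC12 and H2AC12 (331 bp) the changes were -1.50 and -1.89. The widest gap was between H2BC4 at -0.98 (SE 0.26) and H2AC6 at -0.03 (SE 0.21), with 219 bp between them. H2BC26 at -0.74 (SE 0.26) and H2AC25 at 0.05 (SE 0.17), 234 bp apart, differed by 0.79, and the call of H2BC26 was lost in 8 of 18 alternatives (adjusted p up to 0.141 by edgeR). No test was run on differences within pairs.

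**Figure D4:**
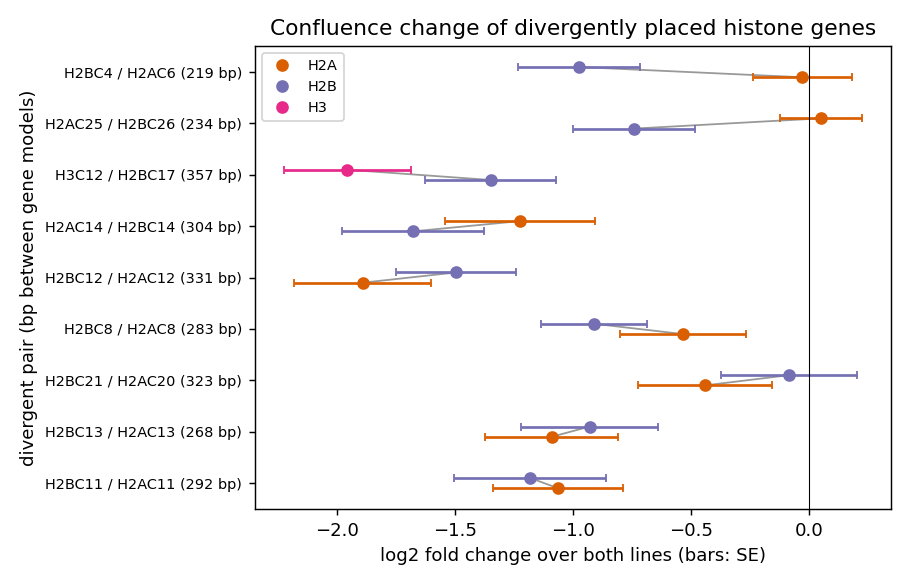
Log2 fold change over both lines (x axis, with SE as bars) of the 9 divergently placed pairs with both members tested (y axis, with the bp between gene models), coloured by family; grey lines join a pair. The pairs at the top, H2BC4 with H2AC6 and H2AC25 with H2BC26, are furthest apart, by 0.95 and 0.79.

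In Z1flag cells 34 of the 56 members were called lower and 0 higher by edgeR (median -1.24), beside 19.1% of all genes lower, 21.3% higher and a median of 0.04. In Z2flag cells 20 were called lower and 0 higher by edgeR (median -1.01), beside 19.3% of all genes lower, 18.3% higher and a median of -0.05. With upper-quartile scaling the shares were 13.3% lower and 27.1% higher in Z1flag and 14.7% and 22.5% in Z2flag cells, and 25 and 13 members were lower. At an unadjusted p below 0.05, 0 members were higher in Z1flag and 1, H4C9, in Z2flag cells, and DESeq2 and limma voom also called 0 higher in either line, with 42 lower by both in Z1flag and 27 and 20 lower in Z2flag cells. Of the members called lower, 19 were called in both lines, 15 in Z1flag cells alone and 1, H3C6, in Z2flag cells alone. The 2 contrasts use different libraries, and the changes ran together over the members (Pearson r = 0.87 across 56 members, a description since members share the libraries). The change was lower in Z1flag for 53 of 56. The edgeR test of this difference called 0 of 56 members and 0.0% of all 18240 genes, with 0 members and 902 of all genes at an unadjusted p below 0.05. DESeq2 and limma voom called 0 members too. The smallest unadjusted p among members belonged to H3C6 (0.0813), H3C15 (0.0987) and H3C1 (0.117), each with an edgeR adjusted p = 0.799.

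The counts within a line depended on single libraries. The number of all genes called lower in the same fits changed as well, in either line, so these counts do not describe the members alone. The 34 calls in Z1flag became 22 without postconfluent replicate 1, 11 without subconfluent replicate 1 and 51 without postconfluent replicate 2, with medians of -0.65, -1.03 and -2.01. The 20 calls in Z2flag became 4 to 7 when any 1 of its own 4 libraries was left out, and 40 when a postconfluent Z1flag library was left out, which changes the spread that all groups share. Without postconfluent Z1flag replicate 2, the difference between lines was called in 10 members, among them H3C13 and H2AC12, all with the lower value of the change in Z1flag cells, and without postconfluent Z1flag replicate 1 its median turned from 0.29 to -0.16.

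**Figure D5:**
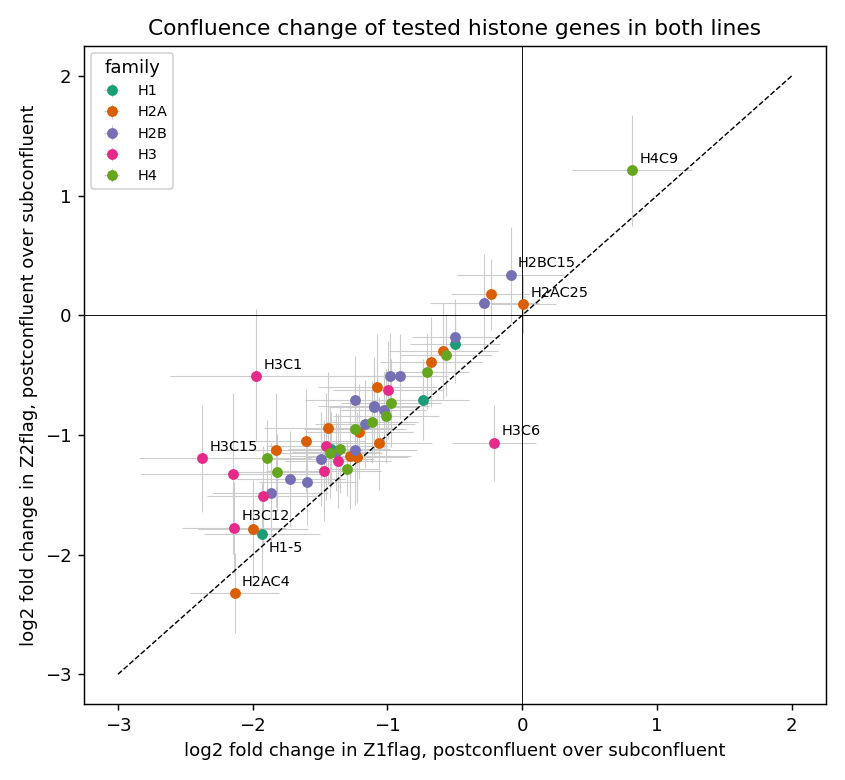
Log2 fold change of each of the 56 tested members in Z1flag (x axis) and in Z2flag cells (y axis), with SE bars in grey, coloured by family; the dashed line marks equal change. Points lie mostly in the lower left and above the line for 53 of 56 members, with H3C6 below it and H4C9 farthest to the upper right.

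Library differences were largest in Z1flag cells. Postconfluent Z1flag replicate 1 had the lowest of the 8 values in 52 of the 56 members, and subconfluent Z1flag replicate 1 the highest in 48. Relative to the subconfluent mean, the median member lay at -1.96 in postconfluent Z1flag replicate 1, -0.59 in replicate 2, and -1.27 and -0.87 in the Z2flag libraries. S phase genes other than histones lay at -2.51, -1.30, -1.35 and -1.37 in the same libraries. The share of reads in no feature was 31.4% and 32.0% in the 2 Z1flag libraries of experiment 1 and 20.6% to 24.5% in the other 6. Whether this share or the S phase content plays a part in the spread between the Z1flag libraries was not tested. Without both Z1flag libraries of experiment 1, 37 members fell over both lines and 2 rose (median -0.72).

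Genes that regulate the class were described from lists chosen with earlier results of these data known. Of 16 genes of histone gene transcription 9 fell and 2 rose (median -0.42). The number that fell was 4 without postconfluent Z2flag replicate 1 or subconfluent Z2flag replicate 2 and with upper-quartile scaling, and 5 without replicate 1 of either subconfluent group and with the CPM filter, which leaves it near the share of all genes called lower (27.5%). The number that rose was 1 without any single subconfluent library. CDC25A, the phosphatase that activates CDK2, fell from 92.1 ± 2.29 to 20.3 ± 6.87 CPM (SD, n = 4), by 2.21 (SE 0.23, edgeR adjusted p = 5.03e-05), and the cyclin E genes CCNE1 and CCNE2 fell by 1.44 (SE 0.21) and 1.57 (SE 0.16). HINFP, the activator of H4 genes, rose from 50.7 ± 2.86 to 81 ± 6.73 CPM (SD, n = 4), by 0.68 (SE 0.13, edgeR adjusted p = 0.00159). NPAT, named for its role after values were seen, was not called (-0.31, SE 0.18, edgeR adjusted p = 0.16).

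Of 31 genes of histone message 3′ end formation and turnover 20 fell and 2 rose (median -0.58). The shares of all tested genes called lower and higher were 27.5% and 27.8%. CSTF2, a subunit of the cleavage stimulation factor, fell by 2.03 (SE 0.14, edgeR adjusted p = 7.49e-06). CPSF2, of the cleavage complex that cuts histone messages, fell from 219 ± 11.3 to 61.7 ± 14.9 CPM (SD, n = 4), by 1.83 (SE 0.17), and the cap-binding protein gene NCBP1 by 1.63 (SE 0.15). SLBP, also named after its values were seen, was at 129 and 126 CPM in subconfluent Z1flag cells and 126 and 124 CPM in subconfluent Z2flag cells, and at 40.2 and 83.8 CPM in postconfluent Z1flag cells and 82.4 and 80.7 CPM in postconfluent Z2flag cells. Its subconfluent values nearly coincided and all postconfluent ones were lower, lowest in Z1flag replicate 1, a fall of 0.83 (SE 0.20, edgeR adjusted p = 0.00608). LSM11, of the U7 particle, rose by 0.78 (SE 0.14, edgeR adjusted p = 0.000893).

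Of 27 chaperone and assembly genes 18 fell and the other 9 were not called (median -0.85), beside 27.5% of all tested genes called lower. SUPT16H, a subunit of the FACT complex, fell from 351 ± 16.3 to 106 ± 8.91 CPM (SD, n = 4), by 1.72 (SE 0.13, edgeR adjusted p = 1.19e-05), NASP, which holds the soluble H3 and H4 reserve, by 1.53 (SE 0.16), and MMS22L, which binds at replication forks, by 1.33 (SE 0.15). Of 26 S phase genes 24 fell and the other 2 were not called (median -1.59), among them the kinase gene CDC7 by 1.86 (SE 0.17), the repressor gene E2F8 by 2.19 (SE 0.19) and the checkpoint gene CLSPN by 2.21 (SE 0.21). Their fall thus accompanied that of the histone genes, and its part in the latter was not tested. Of 14 genes of quiescence and cell cycle exit 7 rose and 1 fell (median 0.43). Among all tested genes 27.8% were called higher and 27.5% lower. The number of list genes that fell was larger in 6 of 18 alternatives, among them without postconfluent Z1flag replicate 2. CDKN1A, the CDK inhibitor p21, rose from 4.57 ± 0.471 to 42.2 ± 1.94 CPM (SD, n = 4), by 3.21 (SE 0.15, edgeR adjusted p = 1.71e-06), the antiproliferative genes TOB1 and BTG1 rose by 1.39 (SE 0.12) and 1.32 (SE 0.13), and LIN9, of the DREAM and MuvB complexes, fell by 0.84 (SE 0.15).

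Replication-independent histones are listed for comparison. Of 15 looked at 11 were tested, 4 fell and 2 rose (median 0.20), beside 27.5% of all genes called lower and 27.8% higher. The list as drawn up also held H4-16, H2AW and H2BU1. No gene was found under these symbols, so they are not among the 15. Besides H1-10, H2AJ rose (0.88, SE 0.18, edgeR adjusted p = 0.00204). MACROH2A1, a large variant of repressed chromatin, fell from 233 ± 11.6 to 142 ± 6.1 CPM (SD, n = 4), by 0.72 (SE 0.12, edgeR adjusted p = 0.000845), and H2AZ2 fell by 0.79 (SE 0.14, edgeR adjusted p = 0.000911). The others that fell were H2AX, whose call was lost in 6 of 18 alternatives (adjusted p up to 0.108 by edgeR), and H2AZ1. Without postconfluent Z1flag replicate 1 the number that rose was 5, and with upper-quartile scaling 4. The H3.3 genes, listed here for comparison with the H3 members, were not called, with 0.37 (SE 0.15, edgeR adjusted p = 0.0549) for H3-3A and 0.21 (SE 0.22, edgeR adjusted p = 0.43) for H3-3B. Without postconfluent Z1flag replicate 1 both were called higher (edgeR adjusted p = 0.00477 and 0.00557), and H3-3A was so in 7 of 18 alternatives, upper-quartile scaling among them.

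The labelled cell type was checked against markers. Of 11 enterocyte genes 10 rose and VIL1 was not called (median 2.23), and their summed level was 1713 to 1955 CPM in subconfluent and 2751 to 3108 CPM in postconfluent libraries. Of the 5 fibroblast markers the summed level was 79.7 to 104 CPM before and 25.6 to 51.9 CPM after confluence, carried by LUM, which fell, and PDGFRB, which was not called, with COL1A2 at 0 in all libraries. The 5 leukocyte markers summed to 8.79 to 22.8 CPM before and 15.5 to 27.3 CPM after confluence, with PTPRC at or below 0.0382 CPM and none of the 3 tested called over both lines by edgeR. The 4 endothelial markers summed to 4.64 to 11.3 CPM before and 7.99 to 22.8 CPM after, with KDR at 0 throughout. Both tested endothelial markers were called higher over both lines, PECAM1 by 1.02 and VWF by 2.02 (edgeR adjusted p = 0.0151 and 0.00543), and their part in the histone changes was not tested.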

How the data were processed

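The values are raw counts per gene as deposited by the authors for 8 libraries, which per the labels were paired-end, stranded and depleted of rRNA. Per the submitters' processing notes the tools were STAR 2.5.2b, HTSeq and SAMtools on hg38; with which annotation, counting mode and strandedness option HTSeq ran, the sources used here leave unstated. Reads in no feature (20.6% to 32.0%), ambiguous reads (5.39% to 5.69% in subconfluent, 6.17% to 7.86% in postconfluent libraries) and multiply aligned reads (6.59% to 6.89% and 7.84% to 10.3%) stayed out of library sizes. Reads shared by near-identical copies can therefore be missing from single histone genes.

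Of 58302 gene IDs, GENCODE v29 holds 58039 and supplied positions, exons and 50-base words. Promoters came from RefSeq on GRCh38.p14. Groups came from the labels. Genes passing edgeR's filterByExpr (minimum count 10, minimum total 15) were fitted in R 4.3.3 with edgeR 4.0.16 (TMM, robust quasi-likelihood F test, 4 group means, 4 residual degrees of freedom), with Benjamini-Hochberg adjustment over 18240 genes and calls at 0.05. Contrasts were the change in each line, their mean and their difference. The SE is the log2 fold change divided by the square root of F. The script was tested on simulated counts. Alternatives used DESeq2 1.42.0, limma 3.58.1, other scalings, filters, blocks and left-out libraries.

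Members and lists were chosen with earlier results of these data known. Named members were, per family, that with the highest mean CPM, the 3 with the lowest adjusted p, and those with the largest fall and the highest change, further any member called higher and the 3 with the smallest p for the difference between lines; named list genes were up to 3 of the lowest adjusted p with a mean of 1 CPM or more, and the first going the other way. Others were named after their values were seen and are so marked, or are given for comparison; the grouping by gene length was also made then. A result on 1 other gene, left out of the list of replication-independent histones, is not reported here.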

Additional observations from a re-analysis of the deposited data

Results flagged for a closer look

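All 56 tested members, the family sums, the sum of all members and the median member were checked in each state, 126 sets of 4 libraries, and in 14 a single library lay far from the other 3. About 1 set in 20 is expected by chance, and the sets share libraries. The 4 libraries of a state come from both lines. Subconfluent Z1flag replicate 1 stood above the other subconfluent libraries in 12 of the 14. The summed H4 level was 2241 CPM there against 1689 to 1769 CPM. H1-3 was at 279 CPM against 187 to 201 CPM, and H1-4 at 838 CPM against 589 to 623 CPM. H2AC6 was at 241 CPM against 155 to 161 CPM, and H2AC20 at 286 CPM against 204 to 214 CPM. Of the H2B genes, H2BC8 was at 346 CPM against 248 to 259.6 CPM, H2BC9 at 418 CPM against 307 to 326 CPM and H2BC26 at 71.1 CPM against 46.4 to 49.7 CPM. H3C7 was at 389 CPM against 274 to 280.1 CPM, and H3C8 at 420.1 CPM against 282 to 297 CPM. H4C11 was at 23.1 CPM against 18.1 to 18.8 CPM, and H4C12 at 23.3 CPM against 19.2 to 19.6 CPM. In the other 2 sets postconfluent Z1flag replicate 1 stood below the rest, with H3C15 at 0.378 CPM against 1.07 to 1.21 CPM and H2AC18 at 1.17 CPM against 3.91 to 4.39 CPM. Both replicates belong to experiment 1.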

How the results depend on the processing

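Alternatives were fixed with earlier results of these data known. The number of all genes called lower also differed between them. Over both lines the 46 members called lower ranged from 29 to 51 when 1 library was left out, with medians of -1.46 to -0.80, and the members called higher from 0 to 2. The number higher was 0 with a CPM of at least 5 in 2 libraries and 2 without both Z1flag libraries of experiment 1. Upper-quartile scaling kept 38 of the 46. DESeq2 kept 45 and limma voom 46.

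Within Z1flag the number lower was 14 without both Z1flag libraries of experiment 1, 20 in a fit of only that line's libraries and 11 to 51 with 1 library left out, and the number higher 0 to 1. Within Z2flag the number lower was 13 with upper-quartile scaling, 39 with no filter, 42 without both Z1flag libraries of experiment 1, 41 in a fit of only that line's libraries and 4 to 40 with 1 library left out, and the number higher was 1 with upper-quartile scaling, without both Z1flag libraries of experiment 1 and in the fit of only that line, and 0 to 1 with 1 library left out. The difference between lines gave 0 to 10 members higher with 1 library left out, and its median was -0.16 to 1.24, and -0.38 without both Z1flag libraries of experiment 1. The cause was not tested. With 1 library of a group left, that library is assumed to vary like the other groups.

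Signs turned for these named genes. H1-3 was at 0.062 over both lines and 0.31 in Z1flag without both Z1flag libraries of experiment 1. H2AC25 over both lines was at -0.0067 with no filter and -0.11 to 0.27 with 1 library left out, negative without replicate 2 of either Z1flag group. In Z1flag it was at -0.063 with no filter, -0.040 with limma voom, and -0.40 to 0.36 with 1 library left out. H2BC15 over both lines was at -0.34 to 0.48 with 1 library left out. In Z1flag it was at 0.11 with upper-quartile scaling, 0.028 with the CPM filter, 0.67 without both Z1flag libraries of experiment 1 and -1.10 to 0.53 with 1 library left out. H3C6 in Z1flag was at 0.018 with upper-quartile scaling and -0.65 to 0.14 with 1 library left out. Over both lines H2AC6 was at 0.15 with upper-quartile scaling, 0.083 with the CPM filter, 0.35 without both Z1flag libraries of experiment 1, 0.036 with the lines pooled and -0.22 to 0.20 with 1 library left out. H2BC21 was at 0.092 with upper-quartile scaling, 0.019 with the CPM filter, 0.35 without both Z1flag libraries of experiment 1 and -0.57 to 0.27 with 1 library left out. H2AC20 and H2BC5 were each at 0.015 without both Z1flag libraries of experiment 1, and H3-3B was at -0.081 to 0.50 with 1 library left out.

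Deviations of libraries with the same experiment number correlated between -0.18 and 0.178 over pairs of groups, so the numbers were not used to pair them. A replicate block gave 46 members lower over both lines and kept all 46, also with a block within each line, and H2AC25 in Z1flag was at -0.0053 with the block and -0.028 with the block within line.

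Low counts limit H3C1, H3C14 and H4C9, with 2 to 95 counts per library.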

Other observations

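Postconfluent Z1flag replicate 1 was set against the mean of the other 3 postconfluent libraries, by gene length and exon number, a grouping made after seeing the data. The median tested histone member differed by -1.07 on the log2 scale. Other tested protein-coding genes with under 1000 exonic bases differed by -0.27 (142 genes), other single-exon genes by 0.14 (215 genes) and multi-exon genes of at least 1000 bases by -0.06 (12775 genes). For subconfluent Z1flag replicate 1 against the other 3 subconfluent libraries, the median member differed by 0.37. There the same groups of other genes, in the same order, differed by -0.42, -0.11 and -0.07.

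The not tested members included H2AC7 and H3C4, whose exons overlap a gene model on the same strand, and H2AC17, which shares exons with H3C12. Of their 50-base words 2.03%, 0% and 13.7% are found in no other gene.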
